A study of Mus musculus with 6 samples.

Results

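Two-quartet RNA G-quadruplex sites in coding sequence were followed through the differentiation of mouse embryonic stem cells. They are the sites that the deposited tables class as two-quartet and place in coding sequence alone, 308 of the 5538 sites listed. The 308 sites lie in 248 of 2643 gene entries. They were taken from that list by structural class and transcript position and by no measured value. How the list itself was made is not stated, and measured values may have shaped it.

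The study measured reverse transcription stops in cells at day 0 (undifferentiated stem cells), day 3 and day 7 of embryoid body differentiation, with 2 samples per day. The cells of every group came from 1 clonal line, from 129S1/CastEiJ x 129S1, that carries a TsixTST allele beside a normal one and is labelled WT. It was grown on inactivated feeder cells with leukemia inhibitory factor, and was freed of feeders for differentiation without that factor. All groups were treated with dimethyl sulfate (DMS) in living cells, and polyadenylated RNA was taken from the chromatin fraction, so cytoplasmic mRNA was largely removed before sequencing. Each sample has counts from reverse transcription with K+ and with Li+. Both day 7 samples also carry a table that is identified as in vitro by its name and the series' design text, with no account of how that RNA was prepared. No label says whether the samples of a day were grown apart, and the p-values reflect the spread between samples, which may be technical.

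A G-quadruplex is a stack of planar layers, each made of guanines that pair in a square around a monovalent cation. K+ stabilises the stack and Li+ does not, so a folded motif halts reverse transcriptase in K+ at its 3′ side. A two-quartet motif needs only short runs of guanines and stacks fewer layers than the three-quartet class, which is in general the more stable. In coding sequence such runs also spell amino acids, glycine codons starting with a pair of guanines. DMS methylates the N7 of guanines that a folded quartet would protect, and methylated motifs cannot refold in the tube. More stops in K+ than in Li+ after DMS treatment are thus the readout of a motif that escaped methylation.

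The following motifs carry the results below and are printed from the deposited tables, 5′ to 3′ on the RNA strand and in the tables' letters, with runs of at least 2 guanines in capitals. Coordinates are 1-based on GRCm38 (mm10). The first group are motifs with the most K+ stops in cells.

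Hnrnpa2b1, chr6:51463456-51463485, minus strand: GGtcctGGaGGaagtGGaGGaagtGGtGGc
Hnrnpa2b1, chr6:51465186-51465215, minus strand: GGGGatGGctataatGGGtatGGaGGaGGa
Dhx9, chr1:153456085-153456107, minus strand: GGacaaGGaagaGGaGGaGGGGG
Trh, chr6:92242746-92242761, minus strand: GGGagaGGaGGGtGGc
Rpl8, chr15:76904885-76904909, plus strand: GGaGGagaaacctGGGGacaGGGGc
Rps2, chr17:24720299-24720329, plus strand: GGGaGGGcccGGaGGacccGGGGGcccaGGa
Rps3, chr7:99480001-99480026, minus strand: GGGGccaaGGGctgcgaGGttgtGGt
Ndufb8, chr19:44555342-44555375, minus strand: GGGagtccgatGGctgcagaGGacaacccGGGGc

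A second group had in vitro stop shares among the highest, and the last 2 motifs are in genes whose reads were higher on day 7 than on day 0.

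Ints13, chr6:146554053-146554080, minus strand: GGaagaagcgaGGGaGGaagaGGGaGGa
Phf10, chr17:14945119-14945139, minus strand: GGaaagtGGGcagaaGGGGGa
Mga, chr2:119926636-119926663, plus strand: GGGagaGGaaGGaaGGGaaGGaGGaGGa
Dek, chr13:47105613-47105627, minus strand: GGaGGaGGaGGaGGa
Ltb, chr17:35196126-35196144, plus strand: GGGGcGGtgatGGtGGGGt
Smo, chr6:29754401-29754427, plus strand: GGtatgaGGacgtGGaGGGctgtGGGa

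Spacing in steps of 3 bases stands out in several of these motifs. In the first Hnrnpa2b1 motif and in those of Dhx9 and Dek every G tract starts a multiple of 3 bases after the one before it, which is the length of a codon. Over the 308 sites, 796 of 1239 steps between neighbouring tracts (64.3%) were multiples of 3. The share was 69.4% of 4696 steps in three-quartet sites of coding sequence and 39.0% of 1719 steps in two-quartet sites of 3′ untranslated regions. The most frequent step was 3 bases, at 39.0% of steps in two-quartet coding sites, against 19.4% in the 3′ untranslated regions, where a step of 4 bases was the most frequent (21.4%). Among sites with at least 3 steps, 73 of 297 (24.6%) had no step that was not a multiple of 3, which held for 29.1% of the three-quartet coding sites and 5.28% of the two-quartet 3′ untranslated sites. Motifs of 1 gene share sequence and are not independent, and without the 8 sites of Hnrnpa2b1 the share of steps in multiples of 3 was 63.3%. These are descriptions of the listed motifs, and the reading frame of each motif was not examined.

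**Figure D1:**
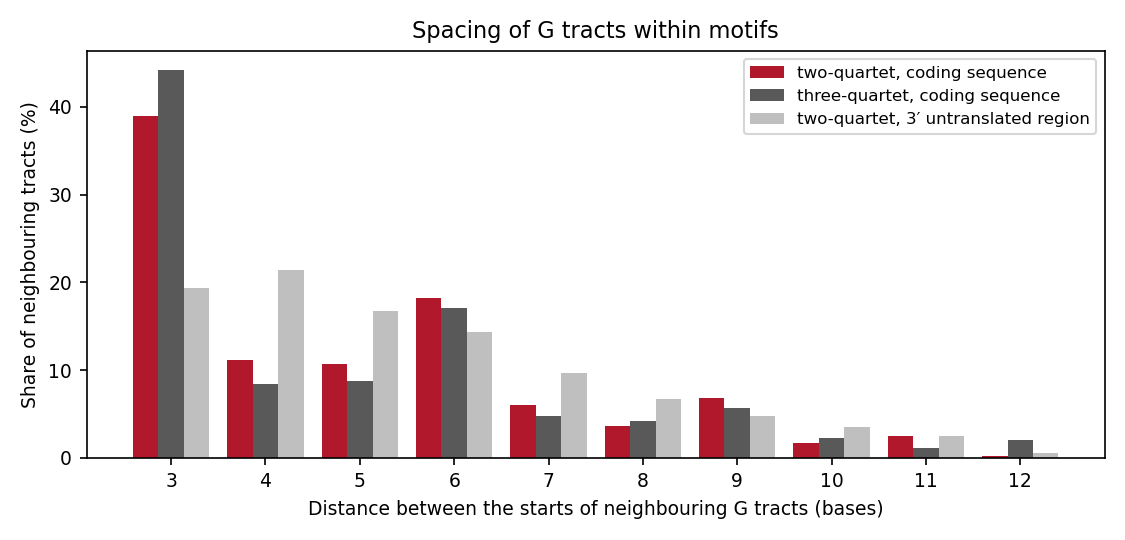
Distance in bases between the starts of neighbouring G tracts (horizontal axis) against the percentage of all such distances (vertical axis) for two-quartet coding sites (red), three-quartet coding sites (dark grey) and two-quartet sites of 3′ untranslated regions (light grey). Both coding classes peak at 3, 6 and 9 bases, and the 3′ untranslated class declines without those peaks from 4 bases on.

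The sites were unevenly spread over genes. Of the 248 gene entries 213 held 1 site and 35 held several. Hnrnpa2b1, which encodes an RNA-binding protein with a glycine-rich tail, held 8, Chd4, a chromatin remodelling ATPase, held 6, and Dhx9, an RNA and DNA helicase, held 5. Akap12, Gnl1, Hnrnpa0 and Hnrnph1 held 4 each. In 12 cases 1 motif was listed with 2 stop positions, so the 308 sites hold 296 distinct motifs, and 46 sites overlapped another one. In all, 25 motifs spanned a splice junction in the tables. Motifs had a median length of 24.5 bases, a median of 58.6% G and a median of 5 G tracts, against 32 bases, 58.8% and 6 in the three-quartet coding sites. In 154 sites the longest run was of 4 or more guanines, and in 44 sites no run was longer than 2.

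Depth differed widely between libraries. Over the 308 sites the K+ counts held from 6286 reads (day 3 replicate 1) to 63084 (day 7 replicate 1) in cells, and the Li+ counts from 7130 (day 3 replicate 2) to 109341 (day 7 replicate 1). The in vitro tables held 48408 and 56638 K+ reads and 39150 and 17799 Li+ reads. Day 3 replicate 1 stood apart: over all sites outside ribosomal and mitochondrial RNA its K+ stop share was 9.62%, against 4.37% to 5.84% in the other 5 K+ libraries. The smallest coverage above 0 was 6, so that 5 reads or fewer appear as 0, and 88 of the 308 sites were above 0 in both cations of all 6 samples. Markers differed by day. The 3 stem cell genes measured (Pou5f1, Esrrb and Tdgf1, of 8 markers) summed to 1501 and 1188 CPM (counts scaled to library size) in the day 0 samples, 1361 and 1268 in those of day 3, and 175 and 408 in those of day 7. The 8 markers of differentiated cells summed to 14260 and 6072 on day 7, against 75.3 and 0 on day 0, most of it H19. Col1a1, the only feeder fibroblast marker of 8 with a site, was listed at 0 on days 0 and 3 and had 18.6 and 27.6 CPM on day 7.

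In vitro the coding two-quartet motifs halted reverse transcriptase in K+ at almost every site that could be tested. The stop share is the number of stops divided by the reads over the site. Summed over the 308 sites it was 41.5% ± 0.411 in K+, against 5.77% ± 0.522 in Li+ (SD, n = 2). Each of the 308 sites had a higher share in K+ than in Li+ in both in vitro tables. At sites with 20 or more reads in both cations, two-sided Fisher's exact tests within each table, adjusted by Benjamini-Hochberg over all sites, put K+ above Li+ in 256 of 258 sites and in 185 of 186. The same held in 4480 of 4491 and 3293 of 3318 of all sites, so the whole list has this property. The listed stop positions carry the mark rG4seq-K, which points to a list made from stops in K+. Whether the sites were picked with these tables is not stated in the labels. A list picked on such stops would give these counts by its making, so the tests describe the list and are no independent evidence of folding.

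The in vitro strength of the sites varied widely. Among the 291 sites with 20 or more K+ reads in both tables the mean share ran from 8.11% to 93.9%, with a median of 48.9% and quartiles of 35.5% and 61.9%. The median was 48.9% in three-quartet coding sites and 52.6% in two-quartet 3′ untranslated sites, and these medians were not tested against each other. The 2 tables differed by a median of 6.83 percentage points per site, and across the 291 sites their shares correlated with Pearson's r of 0.83 and Spearman's rho of 0.83, over sites that share motif and gene. In 108 sites the share was above 50% in both tables, and in 9 it was below 20% in both.

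Among the sites with at least 100 K+ reads in both in vitro tables, Ints13, Phf10, Mga and Dek were among the 5 with the highest mean share. Ints13, a subunit of the Integrator complex, stopped 85.1% and 91.0% of K+ reads, with 95% exact (Clopper-Pearson) intervals of 77.2% to 91.1% and 85.5% to 94.9% that cover counting error only. Mga, a MAX-binding transcription factor, stopped 82.0% and 85.9%, and Dek, a chromatin protein, 82.8% and 78.7%. Phf10, a subunit of a chromatin remodelling complex, stopped 86.3% and 86.0% of K+ reads, but also 65.9% and 53.8% of Li+ reads. A stop that does not need K+ was thus frequent at Phf10, and likewise at Nop53, a nucleolar protein of ribosome assembly, with 80.0% and 78.1% in K+ against 58.9% and 60.5% in Li+.

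The 5 lowest of the same sites were at 3 ribosomal protein genes and 2 genes of heterogeneous nuclear ribonucleoproteins (hnRNPs). Rpl8, a protein of the large ribosomal subunit, stopped 9.15% and 7.07% in K+ against 5.79% and 5.74% in Li+. Rps3 and Rps2, proteins of the small subunit, stopped 10.1% and 10.4%, and 14.03% and 10.98%, in K+. The Hnrnpa2b1 motif at chr6:51465211-51465233 stopped 10.5% and 12.3%, and Hnrnpab, a related RNA binder, 16.2% and 15.5%. Ribosomal protein and hnRNP genes have processed copies, and no source used here says how a read matching several places was treated. Values of these genes are therefore uncertain.

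Simple sequence features went little with the in vitro share. Across the 291 sites Spearman's rho with the mean K+ share was 0.18 for G content, -0.12 for C content, -0.04 for the number of tracts, -0.06 for the longest run, -0.06 for the longest loop and -0.09 for motif length. Sites with every step a multiple of 3 had a median of 42.9% (71 sites), against 49.5% in the other 220. The 42 sites with no run longer than 2 guanines had a median of 41.7%, the 104 with a longest run of 3 had 51.8%, and the 145 with longer runs had 45.9%. The stop position itself could decide the value within 1 motif. At Trh, the thyrotropin-releasing hormone precursor, the same motif gave 67.9% and 66.9% at one listed stop and 42.5% and 48.1% at the other, and at Hnrnph1 the motif at chr11:50381496-50381525 gave mean shares of 18.1% and 53.3% at its 2 stops.

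In cells the stops in K+ were near the Li+ level on every day. The summed K+ share of the 308 sites was 2.95% and 3.12% in day 0 samples, 4.76% and 2.84% in day 3 samples, and 3.33% and 2.43% in day 7 samples. The Li+ shares were 3.58% and 3.86%, 3.40% and 3.42%, and 3.10% and 3.15% in the same order. K+ was above Li+ in day 3 replicate 1 and day 7 replicate 1 and below it in the other 4 samples, so the replicates of days 3 and 7 disagreed in direction. Rpl8 alone gave from 18.3% to 45.1% of the K+ stops in a library. Without it the order of the cations was the same in every sample.

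**Figure D2:**
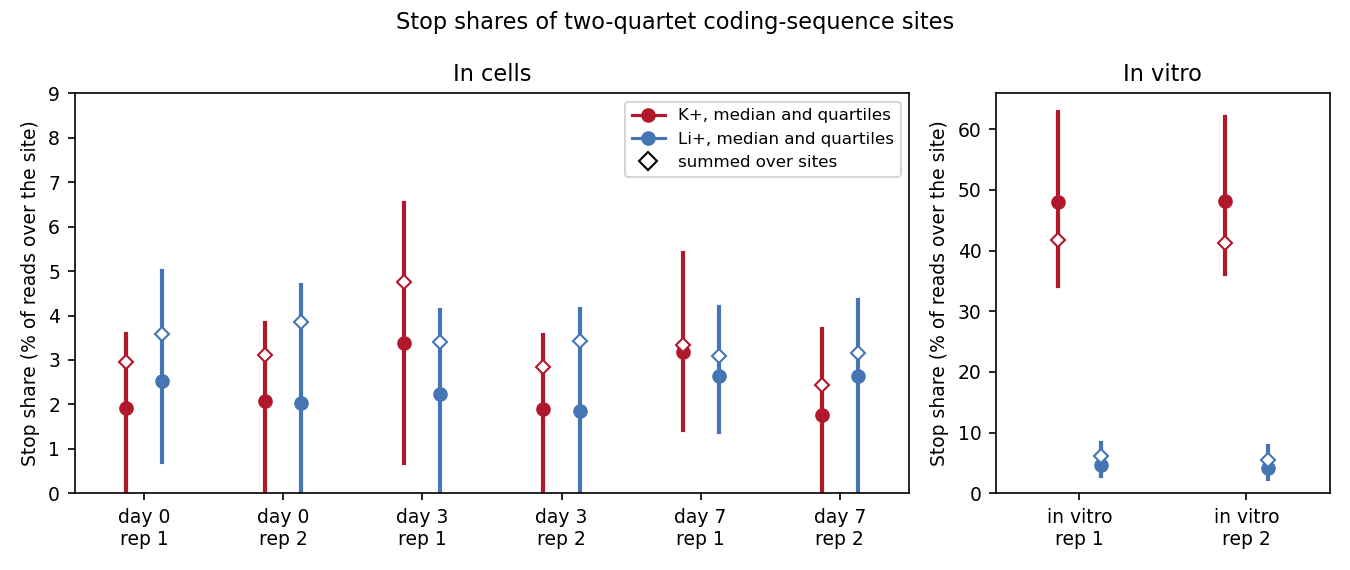
Stop share in percent of reads over the site (vertical axis) for each library, in cells on the left and in vitro on the right, each panel with its own scale. Dots and bars are medians and quartiles over two-quartet coding sites with 20 or more reads, diamonds are shares summed over all 308 sites, red is K+ and blue is Li+. The in vitro K+ medians of 48.0% and 48.2% lie far above Li+, and the cations overlap in all 6 in-cell samples.

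The test of K+ against Li+ within each day asked which motifs had been protected from DMS in the cell. None of the 43 sites with 20 or more reads in all 12 columns was called on any day by limma on weighted log2 odds (adjusted p under 0.05). Across all 847 sites tested the called share was 0% on each day as well. At an unadjusted p under 0.05 days 0, 3 and 7 had 2, 1 and 0 of the 43 sites, and 25, 89 and 44 of all 847. With only that day's libraries required to reach 20 reads, an alternative chosen after seeing the data, 57, 50 and 151 sites could be tested on days 0, 3 and 7 and 0 were called. The median log2 odds ratio of K+ over Li+ was -0.38 on day 0, -0.04 on day 3 and -0.30 on day 7, against -0.31, 0.69 and 0.23 over all sites tested. For scale, the median in vitro was 3.72 and 3.63, over 258 and 186 sites rather than the 43. On day 7 the upper 95% limit lay under 2 on the log2 scale in 36 of the 43 sites, and under 1 in 17. It lay under 2 in fewer of the 43 on the other days, 27 on day 0 and 16 on day 3. Of the 151 sites tested with the day 7 libraries alone, it lay under 2 in 78. A limit under 2 need not lie below a site's own in vitro level. Rpl8, among the 43, had in vitro K+ shares of only 9.15% and 7.07%, against 5.79% and 5.74% in Li+.

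Fisher's exact test, run within each sample after seeing the data, gave few calls, and none in both replicates of a day. Over all sites with 20 or more reads, K+ was above Li+ in both replicates at 0% on day 0, 0.518% on day 3 and 0.0985% on day 7. Of the 57, 50 and 151 two-quartet coding sites that could be tested in both replicates of days 0, 3 and 7, 0 were called in both. Calls in 1 replicate fell mostly in the libraries with raised K+ shares. In day 3 replicate 1 these were 5 of 52 sites, both stops of Trh and 3 sites of Hnrnpa2b1, where 15.6% of all sites were called. In day 7 replicate 1 a Trh stop and an Akap12 site were called among 257 sites, where 4.44% of all sites were. Among the 126 sites of day 0 replicate 1 Rps2 was called, where 0.232% of all sites were, and Rpl8 was called with K+ below Li+, where 0.348% were.

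At Trh the calls lay in the 2 libraries with the highest K+ shares. At its stronger stop the K+ share was 1.66% and 1.42% in day 0 samples, 6.86% and 2.75% in day 3 samples, and 4.23% and 1.42% in day 7 samples. The Li+ share was 2.44% and 2.41%, 1.72% and 0%, and 2.15% and 3.13%, so K+ lay above Li+ in both day 3 samples, in 1 of the day 7 samples and in neither day 0 sample. The log2 odds ratio of K+ over Li+ on day 3 was 2.41 ± 0.92 (SE; unadjusted p = 0.0202, adjusted p = 0.372 by limma). Akap12, a scaffold protein for kinase A, had at its site called in day 7 replicate 1 a K+ share of 8.05% against 0.565% in Li+ there, and 1.64% against 0% in replicate 2.

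At other abundant sites the order of the cations changed between samples or days, or the interval of the difference held 0. The long Hnrnpa2b1 motif printed first had K+ shares of 1.41% and 2.43% in day 0 samples, 2.06% and 1.53% in day 3 samples and 2.57% and 1.26% in day 7 samples, beside Li+ shares of 1.74% and 1.77%, 2.35% and 1.52%, and 2.77% and 2.11%. K+ lay above Li+ in 1 sample of day 0 and 1 of day 3 and below it in the other 4. Its day 7 log2 odds ratio was -0.43, with a 95% interval from -1.45 to 0.59. For Rps3 the interval on day 7 ran from -1.40 to 0.94, for Rpl8 from -0.55 to 0.66 and for the first Dhx9 motif from -1.39 to 0.70. Ndufb8, a subunit of respiratory complex I, had K+ shares of 10.3% and 8.62% against Li+ shares of 5.06% and 3.39% on day 0, and K+ shares of 14.1% and 9.60% against Li+ shares of 15.4% and 15.0% on day 7. K+ was thus above Li+ in both day 0 samples and below it in both day 7 samples. That change, -1.57 ± 0.53 (log2, SE), had the lowest p of the 43 and did not pass over all sites (adjusted p = 0.523 by limma).

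**Figure D3:**
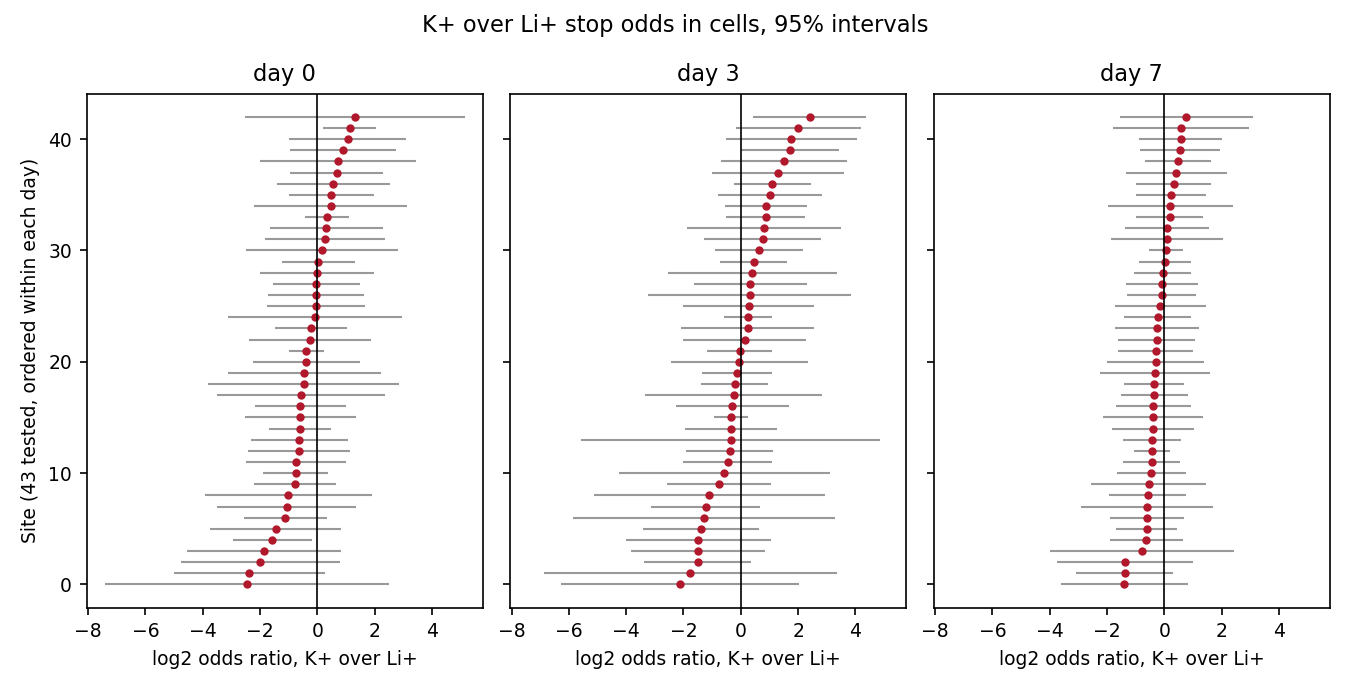
Log2 odds ratio of K+ over Li+ stops in cells (horizontal axis) with 95% intervals for the 43 two-quartet coding sites tested, ordered by size within each of days 0, 3 and 7 (vertical axis, rank). Points scatter on both sides of 0 on each day, with 14, 21 and 14 of 43 above 0, and the intervals are narrowest on day 7.

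No site of the 43 changed its K+ over Li+ odds between day 7 and day 0 by limma, and 0% of all 847 did. Ndufb8 alone of the 43 had an unadjusted p below 0.05. Medians of the change were 0.01 on the log2 scale over the 43 and 0.54 over all sites. In three-quartet coding sites it was 0.43 and in two-quartet 3′ untranslated sites 0.40. Likewise, the K+ stop share alone differed between day 7 and day 0 at 0 of 46 sites and at 0% of all 954, with 0 of the 46 at an unadjusted p under 0.05. Its median difference was -0.10 in the 46 sites and 0.59 over all. In day 7 replicate 1 the median excess of K+ over Li+ per site was 0.0940 percentage points in two-quartet coding sites, 0.971 in three-quartet coding sites and 0.935 in two-quartet 3′ untranslated sites. In day 7 replicate 2 these medians were -0.472, -0.226 and -0.231. These class medians were not tested against each other, and read depth per site differs between the classes.

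Set against the in vitro tables, the K+ stop share of day 7 cells was lower nearly everywhere. Of the 187 sites with 20 or more K+ reads in all 4 tables, 186 were lower in cells and none was higher (limma, adjusted p under 0.05), with a background of 99.4% called over all 3497 sites tested. In vitro K+ lay above Li+ at every listed site with 20 or more reads in both cations. A list picked on high in vitro K+ stops would itself favour lower values in cells. Whether the sites were so picked is not stated, and the part of such a choice was not tested. The median difference in log2 odds was -4.61, against -4.30 over all sites tested. It was -4.25 in three-quartet coding sites and -4.52 in two-quartet 3′ untranslated sites. The site that did not pass was Rpl8, with 5.68% and 5.28% in day 7 cells and 9.15% and 7.07% in vitro, a difference of -0.59 (95% interval -1.39 to 0.20, adjusted p = 0.130 by limma).

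By adjusted p the first sites were as follows. Trh had 4.23% and 1.42% in day 7 cells, against 67.9% and 66.9% in vitro, a difference of -6.22 ± 0.45 (log2 odds, SE; adjusted p = 1.09e-06). Dhx9 had 7.48% and 3.75% at its motif chr1:153456550-153456578, against 59.9% and 63.3%, a difference of -4.76 ± 0.40. In both the in-cell values were far below the in vitro ones, with no overlap. Bex3, a small adaptor protein of the X chromosome, had 4.34% and 1.91% in cells, against 60.4% and 53.3% in vitro. Arid1a, a subunit of a chromatin remodelling complex, had 7.18% and 4.30%, against 72.9% and 81.6%. For Dicer1, the ribonuclease that cuts microRNA precursors, the shares were 2.91% and 3.12% in cells and 66.5% and 67.9% in vitro. Of the secretory pathway, Pdia6, a disulfide isomerase, had 3.52% and 1.53% in cells against 57.8% and 64.8% in vitro. Rer1, a retrieval receptor, had 2.88% and 0% against 72.1% and 73.6%. The largest difference of the 187 was that of Rer1, at -7.48 ± 0.80.

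The drop was mostly one of K+ stops. Li+ shares differed between day 7 cells and in vitro at 1 of 138 sites tested, where 3.36% of all sites were called. The called site was in Ltb, lower in cells by a log2 difference of -1.96. Li+ shares too were mostly lower in cells, at 123 of the 138 sites and at 2152 of all 2648. Their median difference was -0.89, and 15 of the 138 had an unadjusted p under 0.05 by limma. With the Li+ log odds subtracted, an alternative chosen after seeing the data, 110 of the 138 sites were still lower in cells, where 74.2% of all sites were called, and all 138 had a negative difference. Across the 97 sites with 50 or more K+ reads in both day 7 samples, the mean day 7 K+ share correlated with the in vitro share with Pearson's r of 0.33 and Spearman's rho of 0.26. In day 7 replicate 1 the K+ share correlated with the Li+ share of the same sample with r of 0.91 and rho of 0.63. These sites share libraries and base composition. No minimum of Li+ reads was set for the latter correlation. Nop53, among the 97, had 50.5% and 6.15% in K+ and 39.1% and 13.04% in Li+ on day 7. Its replicate 1 values lay far above the quartiles of two-quartet coding sites with 20 or more reads. These were 1.43% and 5.41% in K+ and 1.38% and 4.18% in Li+. Such a point can carry much of r, and r without it was not computed.

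**Figure D4:**
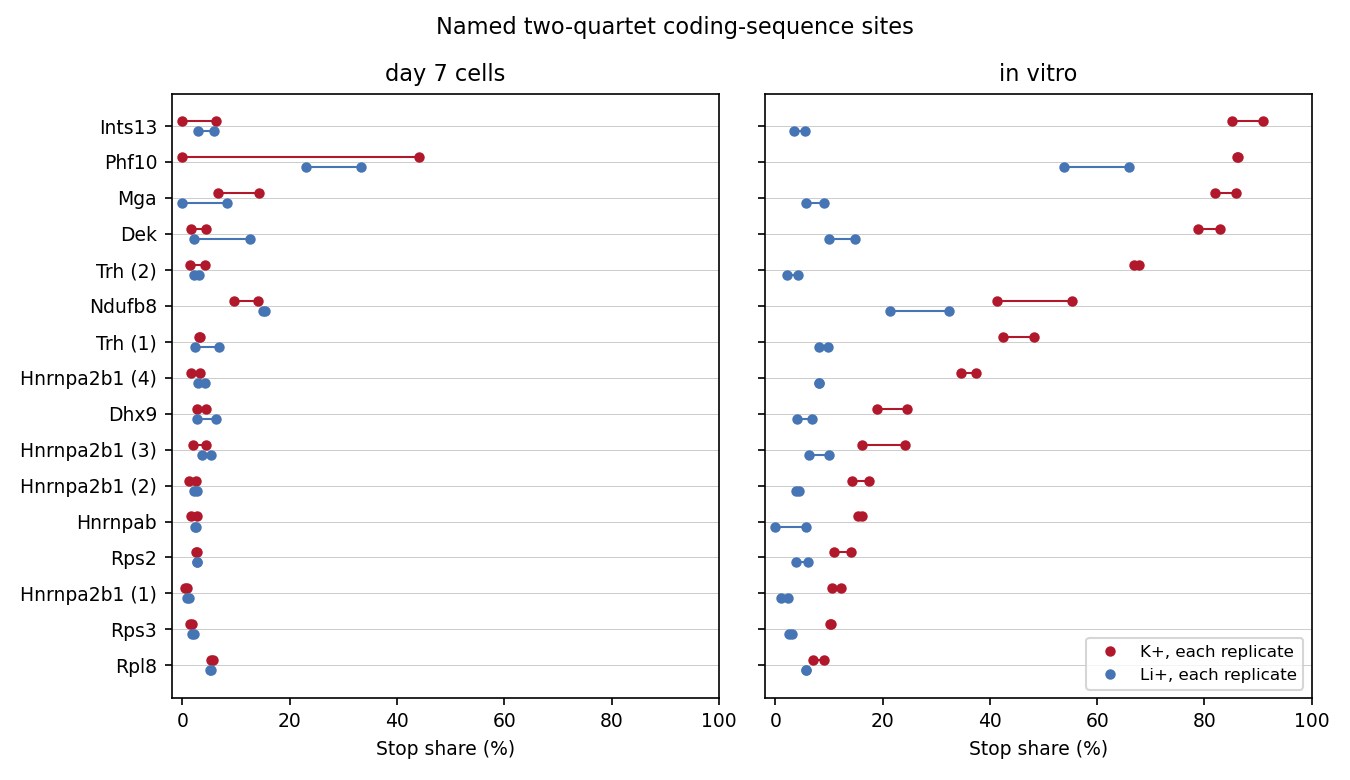
K+ (red) and Li+ (blue) stop shares in percent (horizontal axis) of 16 named sites in both day 7 samples on the left and both in vitro tables on the right, each dot 1 replicate, sites ordered by their mean in vitro K+ share. Numbers in brackets tell sites of 1 gene apart. In vitro K+ spans from 7.07% at Rpl8 to 91.0% at Ints13, and in day 7 cells most K+ and Li+ dots lie under 15%. Phf10 had the widest gap between day 7 replicates in K+ (44.0% and 0%), on only 25 and 13 reads.

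K+ stop counts, which follow the amount of RNA as well as folding, were compared between days. Only 13 of the 308 sites had enough stops (the equivalent of 10 in 2 or more libraries of median size, and 15 altogether). None of the 13 passed in any contrast by limma-voom, where the background over 327 sites was 16.2% for day 7 against day 0, 0.612% for day 3 against day 0 and 6.42% for day 7 against day 3. Unadjusted p was under 0.05 at 3, 0 and 1 of them. Rps2 had 111 and 335 K+ stops, in CPM, on day 7, against 984 and 381 on day 0, a log2 difference of -1.75 ± 0.59 (SE; adjusted p = 0.0729), and the groups did not overlap. The replicate 2 values, 335 and 381, lay close together, and the highest value was that of day 0 replicate 1. Rps2 passed with the 2 days fitted alone (adjusted p = 0.0283 by limma-voom) and without ribosomal and mitochondrial sites (adjusted p = 0.0427). It passed in no other alternative that kept both samples of each of these days. Without day 7 replicate 2, which leaves 1 day 7 sample, the difference was -2.35. Rpl8 had 776 and 1285 on day 7 against 1831 and 2747 on day 0 (-1.21 ± 0.52, adjusted p = 0.150). Ndufb8 had 50.5 and 108 against 213 and 100 (-1.32 ± 0.54, adjusted p = 0.131), and its groups overlapped. For the first Hnrnpa2b1 motif the counts were 536 and 301 on day 7 and 356 and 501 on day 0 (-0.15 ± 0.47).

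The coverage of a site, summed over both cations, gives the amount of chromatin-bound RNA there. In bulk samples fewer cells of a type and less RNA per cell cannot be told apart. With listed zeros taken as 0, 36 of 285 sites tested rose and 7 fell between day 7 and day 0 (limma-voom), where 16.1% of all 4990 sites rose and 4.21% fell. Of the 43 called sites, 20 were listed at 0 in both day 0 samples and could be called only as rises. Sites could enter the test through their day 7 reads alone, as Ltb did. The split of 36 and 7 therefore does not weigh the directions evenly. With each listed 0 taken as 5 reads per cation, an alternative chosen after seeing the data, 12 rose and 12 fell, where 7.84% and 5.63% of all sites did. By name, 15 sites were called both ways, 8 higher and 7 lower. The calls rest on both day 7 libraries: 0 remained without day 7 replicate 1 and 1, Hnrnph1, without day 7 replicate 2, when 251 and 255 sites could be tested and a gene seen on day 7 alone no longer could. Over these sites day 7 replicate 1 was the deepest sample and day 0 replicate 2 the shallowest, and the part of depth in these calls was not tested.

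Ltb, Cald1, Smo and Hnrnph1 were among the sites that rose. Ltb, Cald1 and Smo were listed at 0 on day 0, so they could not have been called lower on day 7. Folds against a group listed at 0 throughout use a floor of 10 reads per library. Ltb, the membrane partner of lymphotoxin, had 35.2 and 29.7 CPM on day 7 and was listed at 0 in both day 0 samples, at least 5.55-fold higher (adjusted p = 0.00141). Caldesmon (Cald1), which binds actin and myosin, had 25.0 and 19.7 at 1 of its 2 overlapping motifs, at least 3.82-fold higher, and 20.7 and 16.7 at the other, at least 3.21-fold. Smo, the transducer of Hedgehog signals, had 22.9 and 17.0 CPM, at least 3.42-fold higher (adjusted p = 0.00359). These 4 sites were among those called with either treatment of zeros. Hnrnph1, a splicing factor, was measured on every day at 2 stops of 1 motif. The deeper one had 167 and 119 CPM on day 7, against 66.5 and 50.3 on day 0 (1.25 ± 0.31, log2, SE; adjusted p = 0.0298), and the days did not overlap.

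Further sites passed only with zeros taken as 0, and their bounds are small. These were Nectin2, a cell adhesion protein, at least 1.83-fold higher on day 7, Myh10, a nonmuscle myosin, at least 1.79-fold, and Dsp, a desmosome protein, at least 1.46-fold. Nes, an intermediate filament of neural progenitors, was at least 1.34-fold higher, Flywch1, a zinc finger protein, at least 1.33-fold, and Lrrfip1, a nucleic acid binder, at least 1.14-fold. With zeros at 5 reads per cation their adjusted p ran from 0.180 (Nectin2) to 0.558 (Lrrfip1). In all, 20 of the 43 called sites had a group listed at 0 throughout, and in 14 of these the bound was above 1.

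Calls made only with zeros at 5 reads included Trh, which fell by 1.00 on the log2 scale, and Prpf8, a spliceosome core protein, which fell by 1.90.

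The 7 sites that fell were measured on every day, and their calls depended on the processing. Phf10 and Rpl8 stayed called in 6 of 11 alternatives each, some of them with 1 library left out. That count was 5 for Dnajc21, 4 each for Aldh2, Utp14a and Ndufb7, and 3 for Nop53. Phf10 had 5.44 and 7.34 CPM on day 7, against 21.7 and 40.1 on day 0 (-2.12 ± 0.47, log2, SE; adjusted p = 0.0210). Rpl8 had 1973 and 2140, against 3589 and 4285 (-0.93 ± 0.22, adjusted p = 0.0262). Aldh2, mitochondrial aldehyde dehydrogenase, had 29.3 and 38.8, against 87.0 and 74.2 (-1.30 ± 0.31). In these 3 genes each day 7 sample was below each day 0 sample. Dnajc21, a cochaperone of ribosome assembly, differed by -1.34 ± 0.33, and Utp14a, a nucleolar protein of small-subunit assembly, by -1.59 ± 0.40. Ndufb7, of complex I, differed by -1.06 ± 0.27 and Nop53 by -1.09 ± 0.31. Of these, Utp14a was also lower on day 7 than on day 3 (10.1 and 15.3 against 34.8 and 40.4 CPM; -1.70 ± 0.39, log2, SE; adjusted p = 0.0296).

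**Figure D5:**
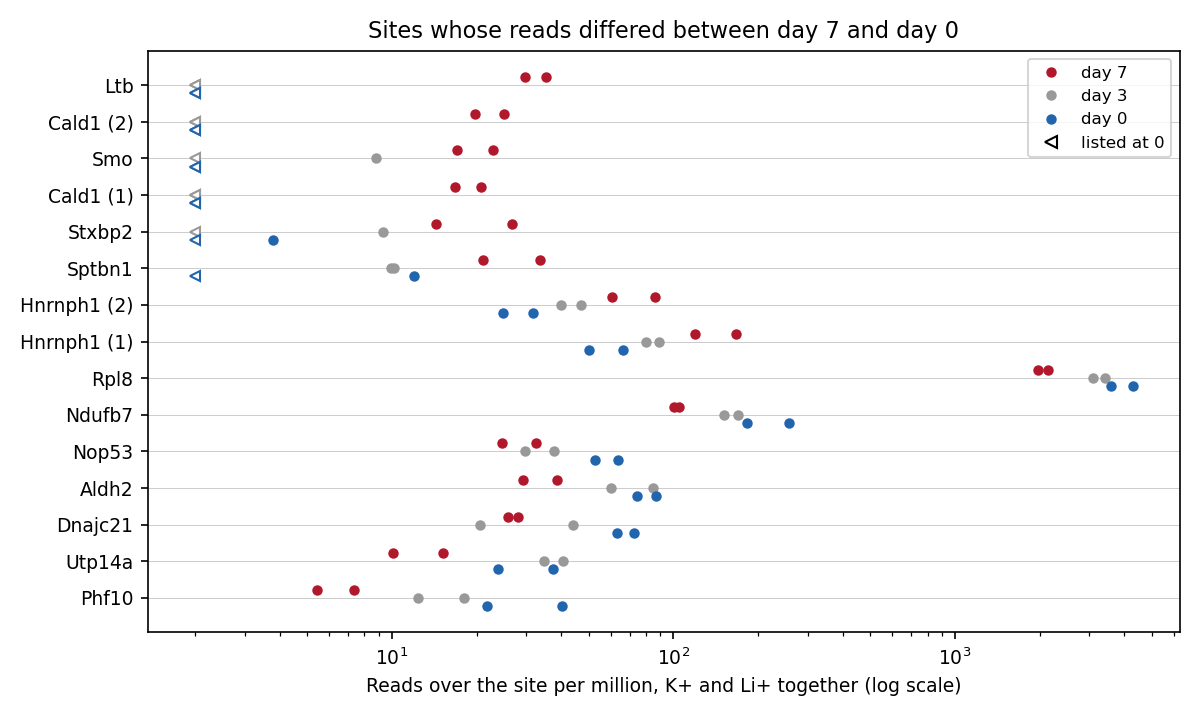
Reads over the site in CPM, both cations together, on a log axis (horizontal) for the 15 sites that differed between day 7 and day 0 with either treatment of listed zeros, each dot 1 sample, with day 7 in red, day 3 in grey and day 0 in blue. Open triangles at the left mark samples listed at 0, whose place on the axis is not a value, and numbers in brackets tell sites of 1 gene apart. Ltb and both Cald1 motifs were listed at 0 in all day 0 and day 3 samples.

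Day 7 against day 3 gave fewer calls. In that contrast 21 sites rose and 1 fell, where 10.4% and 1.66% of all sites did. Of the 22 called sites, 20 were listed at 0 in both day 3 samples and could be called only as rises. With zeros at 5 reads per cation 3 rose and 2 fell, where 4.11% and 2.08% did, and 0 sites were called with either day 7 sample left out. Ltb was at least 5.03-fold higher on day 7, the 2 Cald1 motifs at least 3.46-fold and 2.90-fold, and Mga at least 1.68-fold. Myh10 was at least 1.62-fold and 1.66-fold higher at its 2 motifs. The bounds were at least 1.32-fold for B4galnt4, a glycosyltransferase, 1.32-fold for Dsp and 1.21-fold each for Nes and Flywch1. Mga and B4galnt4 were listed at 0 on day 3 alone. Their day 0 means were 9.03 and 7.64 CPM, near the day 7 means of 10.9 and 8.51. With zeros at 5 reads per cation Ltb and the first Cald1 motif passed, and the second did not (adjusted p = 0.0697 by limma-voom). Mga, Myh10, B4galnt4, Dsp, Nes and Flywch1 did not pass either, with adjusted p from 0.399 to 0.766. Between day 3 and day 0, 0 of 285 sites were called, with 11 at an unadjusted p under 0.05, where 0.0802% of all sites were called. Both contrasts with day 7 share the day 7 samples.

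By function, most sites (219 of 308) lay outside the gene lists, which are partial. Phf10, Cald1, Eif3h, Ndufb8 and Aldh2, for example, are in none of them. The counts below describe the lists and not all genes of a function. The list of RNA-binding and splicing proteins held 36 sites in 16 gene entries. Of the 36, 4 rose in reads between day 7 and day 0 and none fell, where 16.1% of all sites rose. The list's median log2 difference was 0.34, against 0.55 in the 285 sites tested. The 4 were 2 stops of Hnrnph1, Hnrnpa3 and the helicase gene Dhx38, and the last pair was listed at 0 on day 0, with bounds of at least 1.10-fold for Hnrnpa3 and none above 1 for Dhx38. With zeros at 5 reads per cation the 2 stops of Hnrnph1 rose and Prpf8 fell. The in vitro K+ share of the 36 sites had a median of 34.9%, against 48.9% over all two-quartet coding sites, and 123 of 160 tract steps (76.9%) were multiples of 3. The 8 Hnrnpa2b1 sites had 35 of 36 steps in multiples of 3 and a median in vitro share of 31.3%. All 32 sites of this list that could be tested were lower in day 7 cells than in vitro, where 99.4% of all sites were called.

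The lists that follow stand against 16.1% of all sites that rose between day 7 and day 0 and 4.21% that fell, or 7.84% and 5.63% with zeros at 5 reads per cation. The chromatin list held 20 sites in 14 genes, of which 18 were tested for reads. Of these, 2 rose, 1 Chd4 site and Arid2, a subunit of a remodelling complex. Arid2 was listed at 0 on day 0, with no bound above 1. Neither of the 2 passed with zeros at 5 reads per cation, when 1 Arid1a site rose. The list's median in vitro K+ share was 53.7%, and 63 of 81 steps (77.8%) were multiples of 3. Of the 10 sites of the cytoskeletal list 4 rose, 2 of Myh10 and 1 each of Dsp and Sptbn1, a spectrin. Sptbn1 had 33.7 and 21.1 CPM on day 7 and 11.98 and 0 on day 0. With zeros at 5 reads per cation 1 of the 10 rose, Sptbn1. The signalling list held 8 sites, and of the 7 tested Smo and Mapk3, a MAP kinase, rose. They were Smo and Map4k4, another kinase, with zeros at 5 reads per cation. The translation list held 7 sites, and 1 of them, Rpl8, fell with either treatment of zeros. Their median in vitro share was 25.1%, and 5 of 6 tested were lower in day 7 cells than in vitro, the exception being Rpl8.

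The pluripotency list held 4 sites, of which that of Tet1 had too few reads to test. Dnmt3b, a DNA methyltransferase, was listed at 0 on days 0 and 3 and had 5.98 and 7.63 CPM on day 7, at least 1.17-fold higher than day 0. L1td1, an RNA-binding protein of stem cells, had 21.7 and 19.4 on day 7, against 23.6 and 64.0 on day 0 (adjusted p = 0.333), and Jarid2, a Polycomb cofactor, 9.82 and 17.6 against 17.6 and 39.2 (adjusted p = 0.234). Sparc, a matrix protein of fibroblasts and the only site of the feeder and mesenchyme list, had 56.5 and 58.1 on day 7, against 33.1 and 10.2 on day 0 (adjusted p = 0.135), and passed with zeros at 5 reads per cation (adjusted p = 0.0319). Col1a1, the feeder marker, moved the same way, and its part in these differences was not tested. Nes was the only site of the lineage list, Junb, an immediate early factor, of the stress list, and Fasn, fatty acid synthase, of the metabolism list, and the reads of Junb (adjusted p = 0.126) and Fasn (adjusted p = 0.704) did not pass. No site lay in the list of imprinted genes.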

How the data were processed

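The deposited tables list, per site, coverage and stops in K+ and in Li+ as unnormalised whole-number read counts, per the file headers, with gene, class, region and coordinates. Because each record spans 2 lines, they are entered as another unit than counts and were tested with limma rather than a count model. The submitters' processing notes name STAR, SAMtools and cutadapt, without versions, and the builds GRCm38.p6 and mm10. They do not say whether counting used strand.

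Sites were selected by class (two-quartet) and position (CDS). Of their 249 gene symbols, 247 were found in RefSeq. Plus-strand coordinates were shifted by 1 base, a rule checked on promoter sequences. K+ stop counts and summed reads were fitted over all sites by limma-voom (limma 3.58.1, R 4.3.3) with trimmed-mean scaling and no covariates. Stop shares were tested in limma as log2 odds (pseudocount 0.5, beta-binomial weights, 20 or more reads in every column). The main fits had no block for the sample. The K+ and Li+ columns of the same sample, and its day 7 and in vitro tables, were therefore treated as unpaired. P-values were adjusted by Benjamini-Hochberg over all sites tested, and calls have an adjusted p under 0.05. Intervals cover 95%. In day 0 replicate 1, 2 Xist rows without values were taken as 0. Fits were tested on simulated data first. Scipy 1.17.1 gave exact tests and intervals.

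Named sites are those that passed a test (at most 10 per direction, by adjusted p then size), the 10 with most K+ stops in cells, the 5 highest and 5 lowest in vitro among sites with 100 reads, and examples from 11 gene lists. Akap12, the single-library calls, list members named for their read calls and the printed motifs of the highest in vitro sites were added after their values were seen. The sites and lists were chosen with earlier results of these data known. Alternatives covered scaling, filters, coverage, pseudocount, weights, single libraries, replicate numbers and exchanged cation columns. Some named results are not reported here.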

Additional observations from a re-analysis of the deposited data

How the results depend on the processing

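The counts of called sites for K+ against Li+ odds, for their change between days and for the K+ stop share between days were 0 under each alternative run, as was the count of reads for day 3 against day 0. K+ stop counts gave 1 called site for day 7 against day 0 without a filter (Gna11), with the 2 days alone, and without ribosomal and mitochondrial sites (Rps2 in both), and from 0 to 1 when 1 library was left out. Without a filter the day 3 against day 0 and day 7 against day 3 counts were 1 each (Nop53). The 186 sites lower in cells than in vitro became 93 of 94 at a minimum of 50 reads and 110 of 138 with Li+ subtracted. Reads for day 7 against day 0 gave 43 sites, 24 with listed zeros as 5 reads per cation, 25 with the replicate block and 19 with the 2 days alone, and from 0 to 75 with 1 library left out (75 without day 0 replicate 1, 18 without day 0 replicate 2). For day 7 against day 3 the 22 sites became 5 with listed zeros as 5 reads per cation and from 0 to 51 with 1 library left out (51 without day 3 replicate 1, 12 without day 3 replicate 2). The cause was not tested, other than that fewer sites enter when a library is left out. No named site reversed. Replicate numbers are shared between days. The correlations of replicate differences between days were 0.0525, -0.0743 and 0.0477, which show no pairing in that measure. Whether samples of the same number share a batch was not tested. A quasi-likelihood or negative binomial count test was not run, and exchanging the cation columns of day 0 replicate 2 cannot change summed reads or the in vitro comparison. Depth left 43 of 308 sites with 20 or more reads in all 12 in-cell columns, and 57, 50 and 151 in those of days 0, 3 and 7 alone, and at shares of a few percent 20 reads hold less than 1 stop.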
